A study of Homo sapiens with 6 samples.

Results

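The MYC, MAX and MXD network is described here by 10 genes of the deposited count table, MYC, MYCN, MYCL, MAX, MXD1, MXD3, MXD4, MXI1, MNT and MGA. They were chosen with earlier results of these data known. Their rows were taken by gene name alone, and each name matched 1 of the 56303 gene entries. The RNA came from cultured AGS, a line established from a human gastric adenocarcinoma (the tissue label reads gastric cancer tissue). An siRNA (small interfering RNA) directed at SRSF2 had been transfected for 3 libraries (siSRSF2, genotype label SRSF2 knockdown), and 3 further libraries carry the genotype label WT (wild-type). SRSF2 is a serine/arginine-rich protein that promotes exon inclusion during splicing. The labels give no siRNA dose or time, and do not say whether WT cells received a control siRNA or whether replicates were separate cultures. The p-values therefore measure the spread between these libraries, which may be technical.

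MAX is the shared partner of the network. Its basic helix-loop-helix leucine zipper pairs with that of MYC, MYCN or MYCL to activate genes at E-box DNA sequences (CACGTG), and with that of MXD1, MXI1, MXD3, MXD4, MNT or MGA to repress them. MXD proteins and MNT recruit SIN3 corepressors, and MGA is part of a Polycomb complex. MYC drives ribosome production, nucleotide synthesis and cell growth, and its level is raised in many gastric cancers.

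Total counts were 26610937 to 36651623 in siSRSF2 libraries and 47518943 to 50021152 in WT libraries. Levels are given in CPM, read counts scaled to a common library size with TMM factors (trimmed mean of M values). A count of 3, the limit that a count of 0 allows, was worth at most 0.110 CPM in siSRSF2 libraries and at most 0.0657 CPM in WT libraries, counting error only. SRSF2 had 21.6, 21.8 and 24.9 CPM in siSRSF2 libraries and 44.5, 46.4 and 44.1 CPM in WT libraries (log2 fold change -0.98, SE 0.064, edgeR adjusted p = 4.39e-13). MFSD11, which shares 36.66% of the SRSF2 exon length on the opposite strand, was 1.33-fold lower. If reads were counted without strand, SRSF2 counts could hold MFSD11 reads, and how many was not tested. The epithelial keratin KRT8 stood at 2776 CPM in siSRSF2 and 3236 CPM in WT cells and KRT18 at 1058 and 1099 CPM in the same order. The epithelial markers EPCAM (5.80 CPM in siSRSF2, 5.00 CPM in WT) and KRT19 (3.18 CPM in siSRSF2, 3.21 CPM in WT) were low. The tight junction genes CLDN7 (10.0 ± 0.481 CPM in siSRSF2, 1.70 ± 0.114 CPM in WT) and CLDN4 (4.99 ± 0.974 CPM in siSRSF2, 1.45 ± 0.335 CPM in WT) were higher, so that of these 6 epithelial markers 2 were higher and 1, KRT8, was lower (3 and 0 with scaling by library totals). Among leukocyte markers, CSF1R was lower, at 2.97 ± 0.239 CPM in siSRSF2 and 4.75 ± 0.559 CPM in WT cells (SD, n = 3 each), CD14 did not pass the test, and PTPRC, CD3E, MS4A1 and ITGAM were below 0.2 CPM in both group means. The summed level of 7 fibroblast and endothelial markers was 48.7 to 55.8 CPM in siSRSF2 and 22.6 to 23.8 CPM in WT libraries, most of it COL1A1. Of the 6 fibroblast and endothelial markers tested 4 were higher and 2 lower. These marker counts stand beside 30.1% higher and 29.0% lower among all 23689 tested genes (edgeR adjusted p at most 0.05). None of these epithelial, leukocyte, fibroblast and endothelial markers was at 0 in all libraries, and their part in the results below was not tested. In bulk RNA, fewer cells of a type and less RNA per cell cannot be told apart.

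All 10 genes passed the filter on low counts. Of these, 4 were higher (MYCL, MXI1, MNT and MXD4), 5 were lower (MAX, MYC, MXD3, MGA and MXD1) and MYCN did not pass the test, at an edgeR adjusted p of 0.05. The comparison as a whole called 59.1% of 23689 tested genes, 30.1% higher and 29.0% lower (7129 and 6862 genes, or 8560 and 5492 with scaling by library totals). Changes over 2-fold that passed were seen in 19.3% of tested genes and in 3 members, MYCL, MXI1 and MAX. The 3 libraries of a group did not overlap those of the other in 63.8% of tested genes, 32.5% higher and 31.2% lower, and in 8 members, 3 higher and 5 lower. Most tested genes passed, so the number of members past the test does not set them apart.

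**Figure D1:**
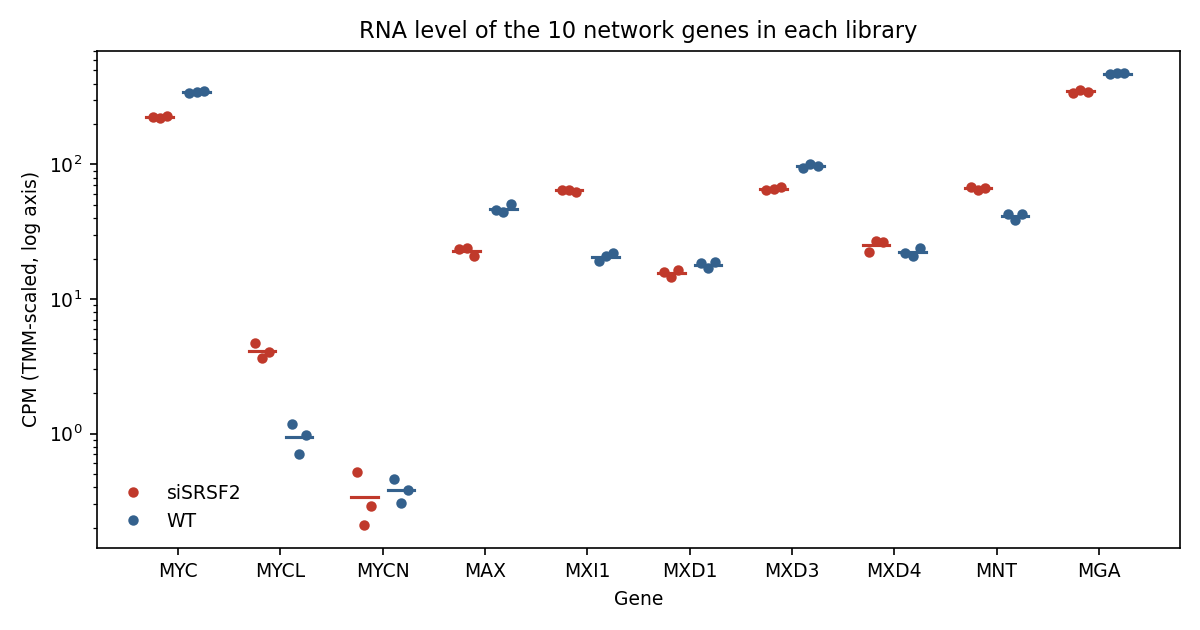
RNA level of each network gene in each library, in CPM on a log axis. Points are libraries (siSRSF2 left, WT right of each pair) and bars are group means of 3. MAX lies at 21.0 to 24.1 CPM in siSRSF2 against 44.5 to 50.6 CPM in WT libraries, and MXI1 at 62.8 to 65.0 against 19.1 to 21.9 CPM.

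MAX, the obligate partner, was the member that fell most. It lies on chromosome 14 at 65006174 to 65102695 on the minus strand (GRCh38 positions as in the table), with 6 merged exons. Its levels were 23.7, 24.1 and 21.0 CPM in siSRSF2 libraries, against 45.8, 44.5 and 50.6 CPM in WT libraries. Each siSRSF2 library stood well below each WT library. MAX had 643, 928 and 728 counts in siSRSF2 and 2181, 2035 and 2402 counts in WT libraries. Its level was 2.05-fold lower in siSRSF2 cells (log2 fold change -1.04, SE 0.066; edgeR adjusted p = 3.56e-13), and 5.31% of tested genes passed with a lower log2 fold change. An unnamed transcript on the opposite strand, RP11-840I19.3, shares 184 exon bases with MAX (4.15% of its exon length) and was also lower, at 5.81 ± 0.377 CPM in siSRSF2 and 9.34 ± 0.463 CPM in WT cells. Whether reads were counted by strand is not stated, and without strand the reads of such pairs cannot be told apart in the shared bases.

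Among the activators, MYC and MYCL moved in opposite directions. MYC, the growth-driving oncogene on chromosome 8 (127735434 to 127741434, plus strand, 3 merged exons), had 226, 223 and 228 CPM in siSRSF2 libraries and 339.9, 348 and 351 CPM in WT libraries. Replicates lay close together, and the groups were far apart. MYC was 1.53-fold lower (log2 fold change -0.62, SE 0.043, edgeR adjusted p = 1.48e-12). Among the line's RNAs MYC was abundant, since 97.8% of tested genes had a lower WT level in CPM. No other entry of the table shares exon bases with MYC.

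MYCL, the family member first found amplified in small cell lung cancer (chromosome 1, 39895426 to 39902256, minus strand), had 4.71, 3.66 and 4.04 CPM in siSRSF2 libraries, against 1.18, 0.700 and 0.969 CPM in WT libraries. All 3 siSRSF2 libraries were above all 3 WT libraries. The level rests on few reads, 128, 141 and 140 counts in siSRSF2 and 56, 32 and 46 counts in WT libraries. MYCL was 4.32-fold higher, the largest change among the members (log2 fold change 2.11, SE 0.20, edgeR adjusted p = 9.56e-10), and 3.55% of tested genes passed with a higher log2 fold change. The opposite-strand transcript RP1-118J21.5, with which MYCL shares 226 exon bases, was higher too, at 1.39 ± 0.205 CPM in siSRSF2 and 0.412 ± 0.0745 CPM in WT cells. The processed pseudogenes MYCLP1 and MYCLP2 had at most 6 counts in any library.

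MYCN, the neuroblastoma-associated member (chromosome 2, 15940564 to 15947007, plus strand), was barely detected. It had 14, 8 and 10 counts in siSRSF2 libraries and 22, 14 and 18 counts in WT libraries. In CPM these were 0.515, 0.208 and 0.289 in siSRSF2 and 0.462, 0.306 and 0.379 in WT libraries, and the groups overlapped. No difference was detectable at this depth (log2 fold change -0.23, SE 0.46, edgeR adjusted p = 0.694). The direction turned without siSRSF2 replicate 2 (0.04, adjusted p = 0.960).

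Of the 4 MXD-family repressors, MXI1 rose most and MXD3 fell most. MXI1, also called MXD2 and known as a target of hypoxia-inducible factors, lies on chromosome 10 at 110207605 to 110287365 on the plus strand with 10 merged exons. It had 64.4, 65.0 and 62.8 CPM in siSRSF2 libraries, against 19.1, 20.9 and 21.9 CPM in WT libraries. The 2 groups were far apart, and every siSRSF2 value was close to the others. The rise was 3.11-fold (log2 fold change 1.64, SE 0.060, edgeR adjusted p = 4.34e-18), and 6.22% of tested genes passed with a higher value. Within MXI1, the opposite-strand transcript RP11-549L6.3 shares 205 bases (4.45% of the MXI1 exon length) and was 8.11-fold higher. It had 172, 274 and 177 counts in siSRSF2 libraries and 29, 40 and 38 counts in WT libraries, far fewer than MXI1 itself with 1751, 2506 and 2177 counts in siSRSF2 and 909, 954 and 1038 counts in WT libraries.

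MXD3, which in mouse cells is known to be expressed in proliferating cells during S phase (human gene on chromosome 5, 177301461 to 177312757, minus strand), had 65.0, 65.3 and 67.8 CPM in siSRSF2 libraries and 94.5, 101 and 96.9 CPM in WT libraries. The groups did not overlap. It was 1.48-fold lower (log2 fold change -0.56, SE 0.048, edgeR adjusted p = 1.16e-10). MXD3 shares 22.47% of its exon length with PRELID1 on the opposite strand and 17.97% with RAB24 on the same strand, so its counts could hold reads of either. PRELID1 was lower (58.4 ± 2.64 CPM in siSRSF2, 112 ± 3.76 CPM in WT, log2 fold change -0.94) and RAB24 did not pass the test (0.19, adjusted p = 0.0779). How much of either signal reached MXD3 was not tested.

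MXD1 and MXD4, both known to be induced as cells differentiate, changed little. MXD1 (chromosome 2, 69897688 to 69942945, plus strand) had 16.0, 14.6 and 16.5 CPM in siSRSF2 and 18.4, 16.9 and 18.8 CPM in WT libraries. The highest siSRSF2 value lay just below the lowest WT value. MXD1 shares 237 exon bases with SNRNP27 on the same strand, which was 1.67-fold lower. MXD1 itself was 1.15-fold lower (log2 fold change -0.20, SE 0.078, edgeR adjusted p = 0.0281), a call that was lost when libraries were scaled by their totals (log2 fold change -0.07, adjusted p = 0.462) and without siSRSF2 replicate 2 (-0.16, 0.116), WT replicate 1 (0.0778) or WT replicate 3 (0.0987).

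MXD4 (chromosome 4, 2247432 to 2262294, minus strand) had 22.3, 26.9 and 26.6 CPM in siSRSF2 libraries and 22.1, 20.7 and 24.1 CPM in WT libraries. Here siSRSF2 replicate 1 lay within the WT range. It passed narrowly as higher (log2 fold change 0.18, SE 0.077, edgeR adjusted p = 0.0425) but not with DESeq2 (adjusted p = 0.102), with median-of-ratios scaling (0.0589), or without WT replicate 1 (0.123), WT replicate 2 (0.244), siSRSF2 replicate 2 (0.197) or siSRSF2 replicate 3 (0.156).

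MNT, the broadly expressed repressor that competes with MYC for MAX and can also pair with MLX, was higher. It lies on chromosome 17 at 2384060 to 2401118 on the minus strand with 11 merged exons. Its levels were 67.6, 64.4 and 67.2 CPM in siSRSF2 libraries, against 42.5, 38.4 and 42.8 CPM in WT libraries, with no overlap. The rise was 1.61-fold (log2 fold change 0.69, SE 0.055, edgeR adjusted p = 2.93e-11). The small opposite-strand entry RP1-59D14.1 lies wholly within MNT exons and did not pass the test (1.72 ± 0.0669 CPM in siSRSF2, 1.66 ± 0.0758 CPM in WT, adjusted p = 0.849).

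MGA, a very large protein that joins a T-box DNA-binding domain to a MAX-pairing domain, was lower. Its gene spans chromosome 15 from 41621224 to 41773081 on the plus strand and has 27 merged exons. The levels were 342, 359 and 346 CPM in siSRSF2 libraries and 473, 476 and 475 CPM in WT libraries. No siSRSF2 library came near the WT range. MGA was 1.36-fold lower (log2 fold change -0.44, SE 0.042, edgeR adjusted p = 9.15e-10).

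**Figure D2:**
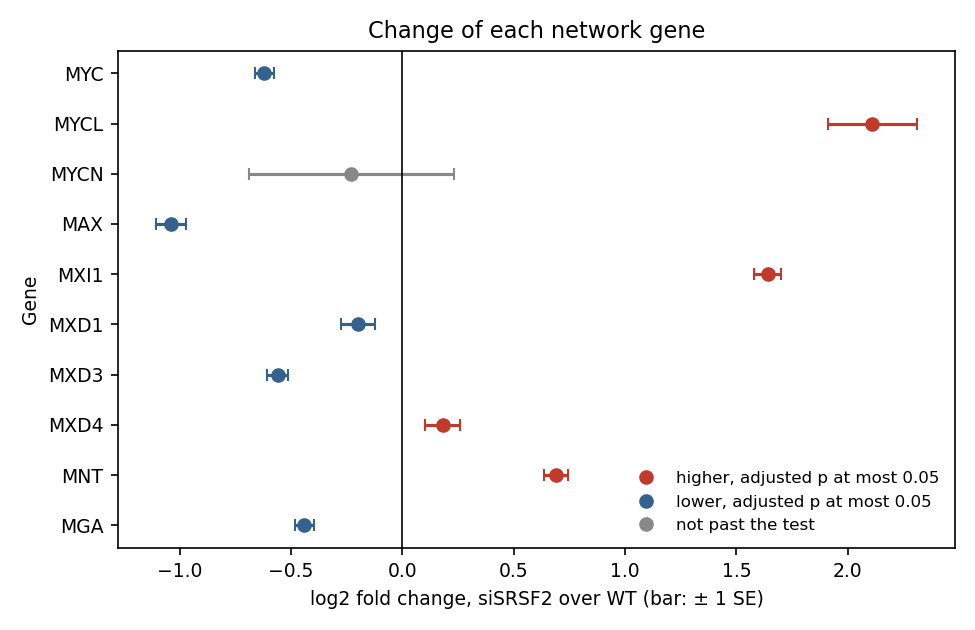
Log2 fold change of each network gene, siSRSF2 over WT, with bars of ± 1 SE and colour by call. MYCL (2.11), MXI1 (1.64) and MNT (0.69) lie to the right, MAX (-1.04), MYC (-0.62), MXD3 (-0.56) and MGA (-0.44) to the left, and MXD1, MXD4 and MYCN lie near 0.

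The E-box that the network binds was looked for in the promoters of its own genes. RefSeq windows (GRCh38.p14, 250 bases before to 50 after each annotated start) were matched by symbol for 9 members with 14 windows, all but MYC. The letters CACGTG, which read the same on both strands, were found in 1 window each of MNT and MXD4, and in 7.26% of all 35116 windows. The related letters CACGCG, searched on both strands, were found in a window of MXD3, MXI1 and MGA, and in 11.4% of all windows. The stretches of the MNT and MXD4 windows before the start that lie outside every exon of the table are shown because they hold the E-box, in capitals, at 193 and 238 bases before the start. They are chr17:2401119-2401310 for MNT and chr4:2262295-2262359 for MXD4, both 5′ to 3′ on the minus strand.
MNT: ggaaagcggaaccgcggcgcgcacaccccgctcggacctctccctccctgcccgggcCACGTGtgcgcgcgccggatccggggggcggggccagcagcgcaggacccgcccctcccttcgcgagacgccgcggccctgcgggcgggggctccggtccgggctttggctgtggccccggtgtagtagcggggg
MXD4: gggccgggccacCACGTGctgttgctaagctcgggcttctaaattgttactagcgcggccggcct
MNT was 1.61-fold higher in siSRSF2 cells and MXD4 1.14-fold higher, the MXD4 call being lost under 8 of 14 alternatives. MXI1 held no CACGTG in its 3 windows. Whether these letters bear on any change in level was not tested. A match describes letters in a window and does not show that a factor was bound.

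Levels of different genes were compared per length, as CPM per kilobase of merged exons. Merged exons cover all annotated transcripts, so a gene whose short forms dominate is understated. In siSRSF2 cells MYC stood first at 75.2 ± 0.964 CPM per kilobase, and in WT cells also first at 115 ± 1.90 (SD, n = 3 each). MGA followed at 19.8 ± 0.504 in siSRSF2 and 26.9 ± 0.0899 in WT cells. Behind these, the order differed. In siSRSF2 cells MXI1 (13.9 ± 0.246) ranked 3, ahead of MXD3 (12.8 ± 0.303), MNT (7.61 ± 0.199) and MAX (5.17 ± 0.376). In WT cells MXD3 (18.9 ± 0.644) ranked 3, ahead of MAX (10.6 ± 0.726), MNT (4.72 ± 0.279) and MXI1 (4.47 ± 0.308), the last pair overlapping between libraries. MXD4 and MXD1 came next in both groups and were apart in siSRSF2 (3.58 ± 0.361 and 2.47 ± 0.149) but overlapped in WT libraries (3.16 ± 0.245 and 2.84 ± 0.161). MYCL and MYCN were last, at 0.817 ± 0.105 and 0.130 ± 0.0613 in siSRSF2 cells, and at 0.187 ± 0.0470 and 0.147 ± 0.0299 in WT cells, where they overlapped.

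Shares within a library do not depend on library scaling. Of the summed counts per kilobase of the 9 genes whose products pair with MAX, the 6 repressors (MXD1, MXI1, MXD3, MXD4, MNT and MGA) took 43.7%, 44.7% and 44.0% in siSRSF2 libraries, against 34.6%, 34.5% and 34.5% in WT libraries. Each siSRSF2 library was above each WT library, by 9.61 percentage points between the means. MXI1 alone held 10.2% ± 0.255 in siSRSF2 and 2.53% ± 0.137 in WT libraries, and MNT 5.58% ± 0.128 and 2.67% ± 0.167 in the same order. The 6 repressors did not move together. MXD3 held less, 9.39% ± 0.156 in siSRSF2 and 10.7% ± 0.311 in WT libraries, as did MGA (14.5% ± 0.427 and 15.2% ± 0.193). MXD4 (2.62% and 1.79%) and MXD1 (1.81% and 1.61%) held slightly more in siSRSF2 libraries. MYC held 55.2% ± 0.411 in siSRSF2 and 65.3% ± 0.119 in WT libraries. The share is a description of RNA, with no test, and its level depends on length: without division by exon length it was 71.8% in siSRSF2 and 66.0% in WT libraries.

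**Figure D3:**
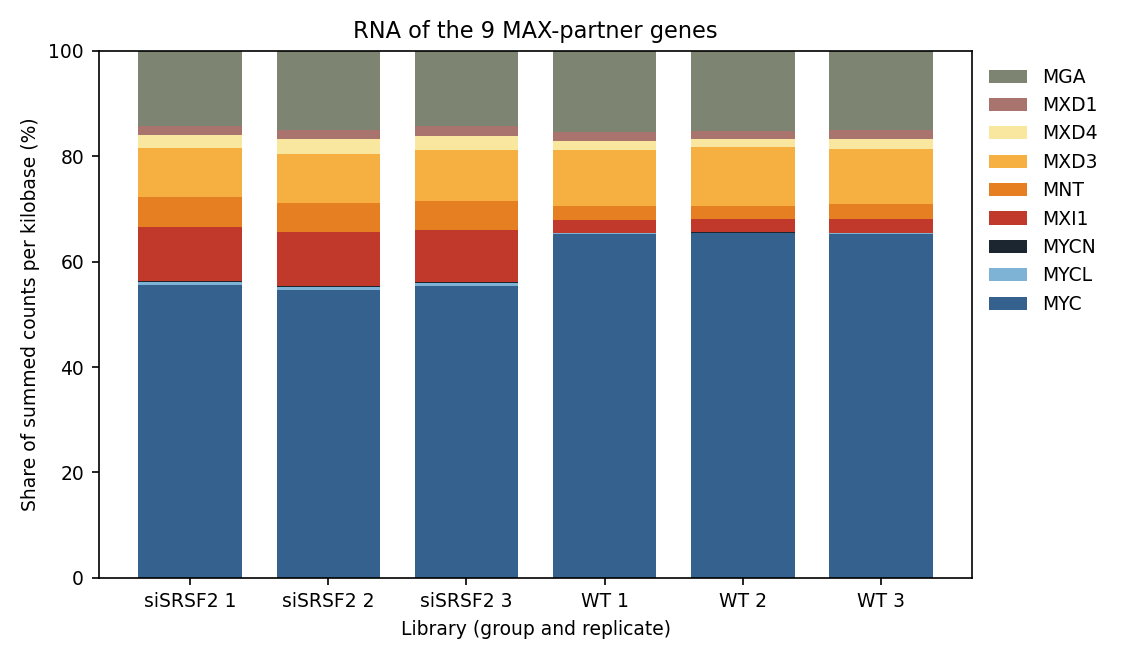
Share of each MAX-partner gene in the summed counts per kilobase of the 9 genes (y axis, percent), 1 bar per library. MYC takes 54.7% to 55.5% in siSRSF2 and 65.2% to 65.4% in WT libraries, and the MXI1 band is wider in all 3 siSRSF2 bars.

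Set against MAX itself, whose RNA was lower, the ratio of partner RNA to MAX RNA was higher in siSRSF2 cells. The summed RNA did not rise. All 10 members together, MAX among them, had 832 to 846 CPM in siSRSF2 and 1057 to 1082 CPM in WT libraries. The summed partner RNA per kilobase was 26.5 ± 2.20 times that of MAX in siSRSF2 libraries and 16.7 ± 0.986 times in WT libraries. MYC to MAX, as a log2 ratio per kilobase, was 3.82, 3.77 and 4.0 in siSRSF2 libraries and 3.45, 3.53 and 3.36 in WT libraries. Although MYC RNA was lower, its ratio to MAX was thus higher in all 3 siSRSF2 libraries, by 0.42. MXI1 to MAX moved much further, at 1.39, 1.38 and 1.52 in siSRSF2 and -1.32, -1.15 and -1.27 in WT libraries, so that MXI1 RNA lay above MAX RNA in siSRSF2 cells and below it in WT cells. MNT to MAX was 0.54, 0.44 and 0.70 in siSRSF2 and -1.09, -1.19 and -1.22 in WT libraries.

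The pattern of a member over the 6 libraries was compared with that of 7890 protein-coding genes of at least 10 CPM, as the root mean square distance of centred log2 CPM (0.5 added). Closest to MYC were TGFBI (distance 0.0131), EIF3M (0.0153) and BRCC3 (0.0177), each with a log2 fold change of -0.61. Closest to MYCL, the member with the largest change, were SCNN1A (0.124), PDK3 (0.128) and C1R (0.138). Their log2 fold changes were 1.85, 1.79 and 1.95, against 2.11 for MYCL. MYCL itself lay below 10 CPM, so the added 0.5 shrinks its pattern more than theirs. These are descriptions over 2 groups of 3 libraries.

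The network has a second branch built on MLX, a MAX-like protein whose partners MLXIP (MondoA) and MLXIPL (ChREBP) respond to glucose metabolites. MLXIPL had 2.58, 3.22 and 2.60 CPM in siSRSF2 libraries, against 0.0420, 0.175 and 0.169 CPM in WT libraries. The WT level is near the floor, with 2, 8 and 8 counts, against 70, 124 and 90 counts in siSRSF2 libraries. It was 21.4-fold higher (log2 fold change 4.42, SE 0.33, edgeR adjusted p = 8.29e-12), and 4.0 on the log2 scale without WT replicate 1. MLX was lower, at 100.3 ± 1.84 CPM in siSRSF2 and 122 ± 5.22 CPM in WT cells (log2 fold change -0.28, edgeR adjusted p = 1.06e-05), and so was MLXIP at 135 ± 5.40 CPM and 162 ± 7.41 CPM in the same order (-0.26, 3.11e-05). In a test against 1.2-fold neither passed, with an adjusted p of 0.267 for MLX and 0.395 for MLXIP.

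Of 7 tested genes known to be activated by MondoA or ChREBP, 3 were higher and 1 lower, beside 30.1% higher and 29.0% lower over all tested genes. Their median log2 fold change was 0.02, equal to that of all tested genes. With scaling by library totals 4 were higher and none lower, with a median of 0.15. TXNIP, which binds thioredoxin and limits glucose uptake, had 120.2, 120.2 and 97.5 CPM in siSRSF2 libraries, against 10.3, 11.1 and 9.65 CPM in WT libraries. It was 10.9-fold higher, and the arrestin-domain gene ARRDC4 was 2.79-fold higher (28.5 ± 2.95 CPM in siSRSF2, 10.2 ± 0.143 CPM in WT). KLF10 rose 1.47-fold, and the fatty acid synthase gene FASN fell by 0.21 on the log2 scale, a call lost with scaling by library totals (adjusted p = 0.137). ARRDC2, ACACA and the hexokinase gene HK2 did not pass, and PKLR was too low to test.

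Genes known to be activated by MYC were mostly lower in siSRSF2 cells. Of 66 tested, 58 fell, 2 rose and 6 did not pass, with 32 falls over 2-fold. This list, like the others, was chosen with earlier results of these data known, so its counts are no independent test. The median log2 fold change was -0.99, against 0.02 over all tested genes, of which 29.0% fell. With scaling by library totals, which moved the median of all tested genes by 0.13, 56 fell and 4 rose and the median was -0.87. ODC1, which makes the polyamine putrescine and is a classical MYC target, had 54.4, 53.4 and 61.4 CPM in siSRSF2 libraries, against 268, 273 and 268 CPM in WT libraries, a 4.79-fold fall (log2 fold change -2.26, SE 0.052, edgeR adjusted p = 5.86e-22).

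The other falls with the smallest p were genes of ribosome assembly, a class with many genes in this list. RRP9, of the U3 particle that processes ribosomal RNA, stood at 24.8 ± 1.41 CPM in siSRSF2 and 113 ± 3.82 CPM in WT cells (4.54-fold lower). GRWD1 was 3.28-fold, RRP12 2.97-fold, UTP20 2.83-fold and the ribosomal RNA methyltransferase NOP2 2.77-fold lower. Not all such genes moved as far. NCL, encoding the abundant nucleolar protein nucleolin, was 2.18-fold lower (3403 ± 159.9 CPM in siSRSF2, 7414 ± 445 CPM in WT), whereas NPM1 was 1.25-fold and FBL 1.12-fold lower. FBL libraries overlapped between groups, with siSRSF2 replicate 1 at 216 CPM and WT libraries at 212 to 217 CPM (edgeR adjusted p = 0.0226). NCL, NPM1 and FBL were named after their values were seen. MCM5, of the replicative helicase, and WDR74, of the large ribosomal subunit pathway, rose (log2 fold changes 0.30 and 0.32), and neither passed against a change of 1.2-fold (adjusted p = 0.160 and 0.146). EXOSC5, HK2, MCM4, PLK4, SLC29A2 and TERT did not pass the test.

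Among 13 genes known to be repressed by MYC, 8 were higher, 2 lower and 3 (CDKN2B, NDRG2 and CEBPA) were not called, beside 30.1% higher and 29.0% lower over all tested genes. Their median log2 fold change was 0.66, against 0.02 over all tested genes, and 0.79 with scaling by library totals. TXNIP stands in this list too. GAS1, a growth arrest gene, was 3.09-fold higher (23.5 ± 2.23 CPM in siSRSF2, 7.60 ± 0.248 CPM in WT), and the cell cycle inhibitor gene CDKN1B was 2.20-fold higher (61.3 ± 5.24 and 27.9 ± 1.26 CPM in the same order). NDRG1, named after its values were seen, had 367, 379 and 301 CPM in siSRSF2 and 45.2, 43.9 and 42.5 CPM in WT libraries. THBS1 went the other way, at 32.5 ± 1.18 CPM in siSRSF2 and 435 ± 18.1 CPM in WT cells (13.4-fold lower). GADD45A fell by 0.27 on the log2 scale, which did not hold with scaling by library totals (adjusted p = 0.174), without WT replicate 2 (0.0700) or without siSRSF2 replicate 3 (0.0624).

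**Figure D4:**
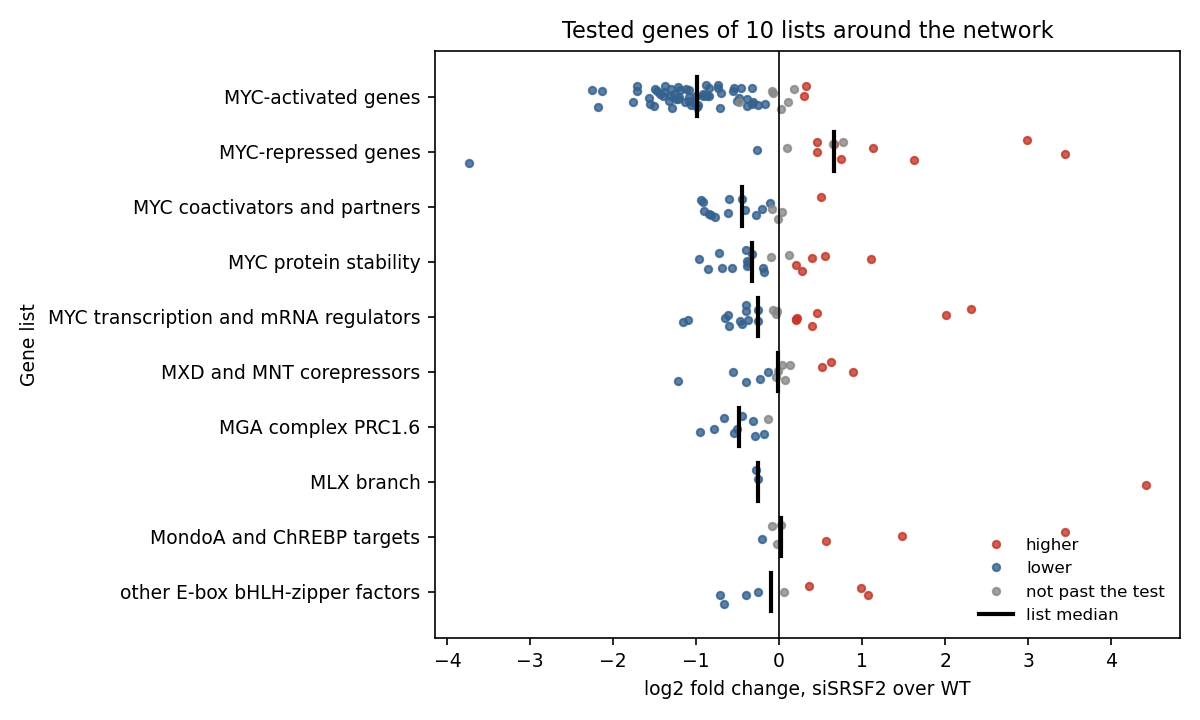
Log2 fold change, siSRSF2 over WT, of each tested gene in 10 lists around the network, coloured by call, with the list median as a black bar. Of the MYC-activated genes 58 of 66 were lower (median -0.99), and 8 of 13 MYC-repressed genes were higher (median 0.66). The lists were chosen with earlier results of these data known.

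Coactivators and other partners of MYC were mostly lower: 13 of 17 fell, 1 rose and 3 did not pass. Over all tested genes 29.0% were lower and 30.1% higher, with a median log2 fold change of 0.02, and the same shares are the background of each list that follows. The median of these coactivators and partners was -0.45, and with scaling by library totals 11 fell and 2 rose. The acetyltransferase gene CREBBP was 1.88-fold lower (102 ± 1.16 CPM in siSRSF2, 193 ± 1.94 CPM in WT), SMARCB1, of the SWI/SNF remodelling complex, 1.90-fold and the ATPase gene RUVBL1 1.79-fold. CDK9, the kinase that releases paused RNA polymerase, rose 1.42-fold.

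Corepressors of MXD proteins and MNT did not share a direction. Of 13 tested, 3 were higher, 5 lower and 5 did not pass (median -0.01), and with scaling by library totals 7 were higher and 4 lower (median 0.12). SIN3A, the scaffold to which MXD proteins bind, was 1.54-fold higher (374 ± 9.73 CPM in siSRSF2, 242 ± 6.08 CPM in WT). ARID4A was 1.85-fold and SAP30 1.44-fold higher. BRMS1 was 2.32-fold, SAP18 1.48-fold and the deacetylase gene HDAC2 1.32-fold lower. Partners of MGA in its Polycomb complex showed 9 falls and no rise among 10 genes, YAF2 being the exception (adjusted p = 0.0675). The median log2 fold change of these partners was -0.48, and 6 fell with scaling by library totals. E2F6, the DNA-binding repressor of that complex, was 1.93-fold lower (12.7 ± 0.703 CPM in siSRSF2, 24.5 ± 0.659 CPM in WT), L3MBTL2 1.73-fold and CBX3 1.42-fold.

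Regulators of MYC protein stability were 5 higher and 12 lower of 19 (median log2 fold change -0.33), or 6 and 10 with scaling by library totals. USP28, a deubiquitinase that counters the MYC ligase FBXW7, was 2.17-fold higher (39.8 ± 1.06 CPM in siSRSF2, 18.4 ± 0.593 CPM in WT), with smaller rises of BTRC (1.32-fold) and HUWE1 (1.22-fold, adjusted p = 0.243 against a change of 1.2-fold). USP36, a nucleolar deubiquitinase of MYC, was 1.96-fold, the phosphatase subunit gene PPP2CA 1.82-fold and the ubiquitin ligase gene SKP2 1.65-fold lower.

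Regulators of MYC transcription and mRNA were 7 higher and 12 lower of 22 (median log2 fold change -0.26), or 7 and 11 with scaling by library totals. The repressor genes PRDM1, which silences MYC in plasma cells, and BCL6 were 4.95-fold and 4.02-fold higher. PRDM1 had 10.3 ± 1.63 CPM in siSRSF2 and 2.08 ± 0.266 CPM in WT cells, and BCL6 25.1 ± 3.03 and 6.22 ± 0.146 CPM in the same order. The mRNA-binding IGF2BP2 was 1.32-fold higher. CTCF, which binds chromatin insulators, was 2.23-fold lower, and FUBP1 and PUF60, which act on a DNA element upstream of MYC as activator and inhibitor, were 1.57-fold and 2.15-fold lower. PVT1, the long non-coding RNA beside MYC, did not pass the test, at 59.4 ± 2.17 CPM in siSRSF2 and 62.4 ± 1.45 CPM in WT cells (log2 fold change -0.07, SE 0.051, edgeR adjusted p = 0.254), with a turned sign (0.06) under scaling by library totals.

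Other E-box-binding factors of the same protein class split, 3 higher and 4 lower of 8 tested. SREBF1 and SREBF2, regulators of lipid synthesis, were 2.09-fold and 1.98-fold higher, and TFE3 1.28-fold. USF1 was 1.64-fold, TFAP4, itself a MYC target, 1.58-fold and USF2 1.32-fold lower. Their median, -0.10 on the log2 scale, changed sign to 0.03 when libraries were scaled by their totals.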

How the data were processed

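Total RNA (TRI Reagent) went into SMARTER mRNA-Seq libraries, per the labels' protocols. The deposited table holds unnormalized counts, 1 value for each gene and library, in 6 libraries. HISAT2 2.0.5, featureCounts 1.5.0-p3 and the mouse build mm10 are named in the submitters' processing notes, but the table holds human genes. Of 36027 names found once in GENCODE release 29 (GRCh38), 95.7% overlapped it reciprocally by at least 0.8, and all 10 members had identical ends. No source used here gives the strand setting or the treatment of shared reads.

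Groups came from the sample titles. Every pair of replicates differed by more than sampling noise (chi-square 3.83 to 8.75 per gene). In R 4.3.3, edgeR 4.0.16 kept 23689 genes (filterByExpr, minimum count 10), scaled by TMM, and ran the robust quasi-likelihood F test with Benjamini-Hochberg adjustment over all of them. SEs were derived from the F statistic. The pipeline was tested on simulated data. Alternatives used DESeq2 1.42.0, limma 3.58.1 (voom), other scalings and filters, a replicate block, a test against 1.2-fold and each library left out.

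The 14 gene lists, the members among them, were chosen with earlier results of these data known. All 210 list entries were found, 2 by an older symbol, and 1 leukocyte marker is not reported here. From each list but the members and markers, the up to 3 rises and 3 falls with the smallest p were named. For MYC-activated genes the limit was 6 each, and MLX-branch genes and PVT1 were named in any case.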

Additional observations from a re-analysis of the deposited data

How the results depend on the processing

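MYC, MYCL, MAX, MXD3, MXI1, MNT and MGA kept their direction and their call under all 14 alternatives, with log2 fold changes of -0.69 to -0.49 for MYC, 1.93 to 2.29 for MYCL, -1.11 to -0.91 for MAX, -0.64 to -0.43 for MXD3, 1.56 to 1.77 for MXI1, 0.61 to 0.82 for MNT and -0.52 to -0.31 for MGA. MXD1 lost its call under 6 alternatives and MXD4 under 8. MYCN ranged over -0.62 to 0.04 with single libraries left out and changed sign without siSRSF2 replicate 2 (0.04) and PVT1 with scaling by library totals (0.06), and neither passed there. The rise of the repressor share, 9.61 percentage points, was 11.9 points without MGA and 5.82 points without division by exon length. Of 280 counts of risen or fallen list genes under the alternatives, 265 stayed within 1.5 times. For the other named genes, 700 of 714 values kept direction and call, and PVT1 passed as lower with no filter (-0.14, edgeR adjusted p = 0.0318). Deviations of same-numbered libraries from their group means correlated weakly (0.0432, -0.0767 and -0.0548), and siSRSF2 replicate 2 correlated best with WT replicate 3 (0.107). So few correlations, centred within groups of 3, cannot show whether same-numbered libraries shared a culture or batch. With the replicate number as a block, 6927 genes were higher and 6770 lower, against 7129 and 6862 without it, and 4 members were higher and 5 lower in both. Depth limits MYCN, at 8 to 22 counts, and the WT levels of MYCL and MLXIPL.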

Other observations

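Near the MYC gene on chromosome 8, long non-coding entries did not follow MYC. These entries were looked up after the values of MYC were seen. CCAT1 was 1.37-fold higher, at 96.5 ± 6.60 CPM in siSRSF2 and 70.3 ± 4.43 CPM in WT cells (SD, n = 3 each, edgeR adjusted p = 8.97e-08). CASC11 was higher by 0.68 on the log2 scale at a low level, 2.59 ± 0.207 CPM in siSRSF2 and 1.61 ± 0.0705 CPM in WT cells (edgeR adjusted p = 0.00269). Genes named for binding MYC were lower, MYCBP at 9.98 ± 0.550 CPM in siSRSF2 and 14.2 ± 0.972 CPM in WT cells, and the ubiquitin ligase gene MYCBP2 at 139 ± 2.85 and 173 ± 3.16 CPM in the same order. The antisense entry MYCNOS had 0 counts in all siSRSF2 libraries and 2 counts in 1 WT library.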
